A study of Mus musculus with 6 samples.

Results

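The hippocampal transcripts of 10 neuropeptide genes were examined in mice with an Rbfox1 transgene, which encodes an RNA-binding protein of neurons, and in their controls. The genes were Penk, Pdyn, Tac1, Tac2, Crh, Nts, Adcyap1, Cartpt, Grp and Cort, taken by symbol from a table of 53354 gene symbols. They accounted for 23 of its 133944 isoforms. The control mice, called N-cre, carried Nes-Cre, in which the nestin promoter drives Cre recombinase in neural cells. The N-cre;Fox1 mice carried the same Cre and in addition 1 copy of an Rbfox1 cDNA behind a CAG promoter and a loxP-flanked stop cassette at the Gt(ROSA)26Sor locus (Nes-Cre;R26-Rbfox1 +/flox). Total RNA from hippocampi of 3 mice per genotype was sequenced, all 3 months old and of C57BL/6 background. Both genotypes thus shared the Cre transgene, and the effect of Cre itself cannot be seen in this comparison. The question put to these genes was whether their RNA levels, or their choice of isoform, differed in mice with the transgene.

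A neuropeptide gene encodes a precursor that enters the secretory pathway, is cut at pairs of basic residues by prohormone convertases, is trimmed by carboxypeptidase E and is stored in dense-core vesicles until release. The released peptides act on G protein-coupled receptors. In the hippocampus enkephalins and dynorphins are made in granule cells of the dentate gyrus and in some interneurons, cortistatin and tachykinins in sets of GABAergic interneurons, and other peptides in sparse populations. Rbfox proteins bind the sequence GCATG and are best known for regulating splicing, and they also bind mature transcripts.

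The expected counts, which are RSEM's estimates of how many read pairs came from each isoform, summed to 40463587 to 62141336 in N-cre and to 54352011 to 59362399 in N-cre;Fox1 mice. The 10 genes together took 0.00692% to 0.00747% of them, or 2868 to 4581 counts per mouse. The markers of dentate granule cells, CA1 and CA3 pyramidal cells that were listed for checking the tissue, 10, 9 and 8 genes, all passed the filter on low counts. Of 11 hypothalamic markers 2 passed it, Sim1 was at 0 in every mouse, and the list summed to 76.3 to 115 normalized counts. The lists for 2 other regions were not near 0. Of 9 thalamic markers 8 passed the filter, and of 11 markers of neocortex and subiculum all 11. These 2 lists summed to 10846 to 13628 and to 13519 to 16919 normalized counts per mouse. Ptpn3, Calb2 and Prkcd, at means of 4314, 1937 and 1840, were the highest of the thalamic list. Gbx2 was its marker below the filter, at 0.86 to 2.0. Whether the counts of these lists came from neighbouring tissue or from hippocampal cells was not tested. Normalized counts here are expected counts scaled by edgeR's TMM factors to a common library size. The 9 choroid plexus markers summed to 121206 in N-cre replicate 3 and to 272886 in N-cre;Fox1 replicate 2, against 1613 to 2161 in the remaining 4, so that 1 mouse of each genotype stood apart. Xist was counted 27387 and 22347 times in replicate 1 of N-cre and of N-cre;Fox1, and at most 22.3 times in the other 4 mice. Rbfox1 itself, summed over isoforms, averaged 14813 ± 427 normalized counts in controls and 14931 ± 1223 in N-cre;Fox1 mice (SD, 3 mice each), with overlap between them and a 95% interval of the fold change of 0.923 to 1.10. No rise in Rbfox1 RNA was measured here, so the sum does not tell the mice labelled N-cre;Fox1 from the controls. The paper reports a modest rise of Rbfox1 mRNA (data not shown) and of Rbfox1 protein by immunoblot in hippocampi of this model. The mRNA rise that it states lies above the interval given here, and the reason for the difference was not tested. The genotypes are those of the labels.

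The codons of 4 peptides are shown to place each peptide between its cutting sites, and because the Tac1 isoforms described further on differ in and around these stretches. They were read from the GENCODE transcripts of mm10, 5′ to 3′ in the direction of the gene. Capitals mark the codon pairs for paired basic residues, at which precursors are cut. In the substance P stretch the second codon of the first pair is also the first codon of the peptide.
Met-enkephalin in Penk: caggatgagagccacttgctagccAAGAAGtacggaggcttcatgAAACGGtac
substance P in Tac1: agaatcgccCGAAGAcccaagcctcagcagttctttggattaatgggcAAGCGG
neurokinin A in Tac1: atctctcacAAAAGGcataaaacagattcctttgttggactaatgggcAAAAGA
neurokinin B in Tac2: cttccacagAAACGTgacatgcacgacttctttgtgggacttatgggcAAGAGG
The Met-enkephalin stretch, with the first of its copies in the precursor, lies at chr4:4134325-4134378 (minus strand). Substance P lies at chr6:7556720-7556773 (plus strand). The stretches of neurokinin A, chr6:7557731-7559139, and neurokinin B, chr10:127728464-127729154, both on the plus strand, each join 2 exons across an intron. Within its 268 codons the Penk precursor held 7 enkephalin cores, 6 of them Met-enkephalin. The 3 tachykinin stretches end alike, each with codons for the residues that make up the shared tail of this family.

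Levels were compared between genes after division by transcript length, as the normalized count per kilobase (kb). Grp was listed highest, at 787 ± 61.5 per kb (SD, n = 6 mice), and Penk next, at 753 ± 46.4. The ranges of these genes overlapped, and those of Penk and Pdyn did not. Pdyn (270 ± 28.3 per kb), Nts (270 ± 42.3) and Tac1 (261 ± 39.6) formed a middle set, in which each gene overlapped the next. Tac2 at 190 ± 17.4 per kb and Cort at 154 ± 42.2 followed, also overlapping each other, and both lay below every Tac1 value. Adcyap1 at 74.1 ± 8.67 and Cartpt at 67.9 ± 8.49 overlapped, and Crh was lowest at 43.9 ± 4.40 per kb, below every mouse's value of Cartpt. Among the tested genes with an annotated length, 72.0% had a lower level per kb than Grp and 30.7% a lower level than Cartpt. The lengths for Grp and Adcyap1 came from a later version of their isoforms, which places their levels less firmly than the rest.

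**Figure D1:**
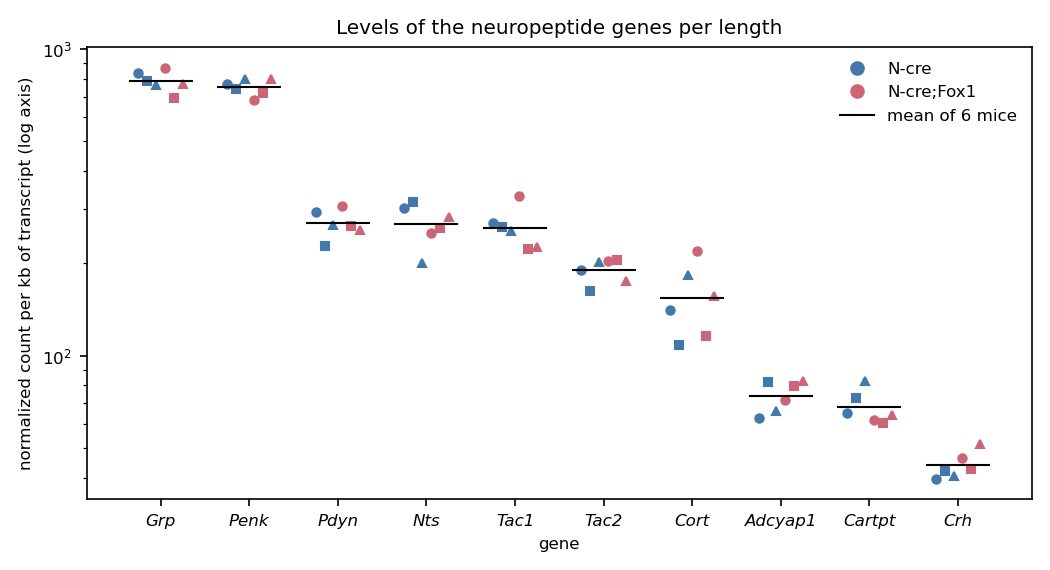
Normalized count per kb of transcript (log axis) of the 10 neuropeptide genes in order of their mean, with 1 point per mouse, N-cre in blue and N-cre;Fox1 in red, and the mean of 6 mice as a line. Grp and Penk lie above 685 per kb in every mouse, and Crh lies between 39.8 and 51.6.

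The neuropeptide genes did not separate the genotypes as a group. All 10 passed the filter on low counts, and 0 of 10 passed an adjusted p of 0.05 (edgeR's quasi-likelihood fit, Benjamini-Hochberg over all genes), against 5 of 18924 genes or 0.0264%. At an unadjusted p under 0.05 the count was also 0 of 10, against 6.19% of all genes. DESeq2's Wald test and limma-voom likewise called 0 of 10 at either threshold. The log2 fold changes of N-cre;Fox1 over N-cre ran from -0.12 (Cartpt) to 0.20 (Crh), 5 above and 5 below 0, with a median of 0.026 against -2.4e-05 for all genes. The adjusted p-values lay between 0.923 and 0.996 in the edgeR test. The 95% confidence interval of the fold change differed by gene, from 0.858 to 1.05 for Penk, the narrowest, to 0.751 to 1.72 for Cort, the widest, so the size of change that was not detectable with 3 mice per genotype differed by gene. The mice of the genotypes were fully apart for 1 of 10 genes, Crh, against 12.1% of all genes tested. In whole tissue, fewer cells of a type and less RNA per cell cannot be told apart, in this and each following comparison.

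**Figure D2:**
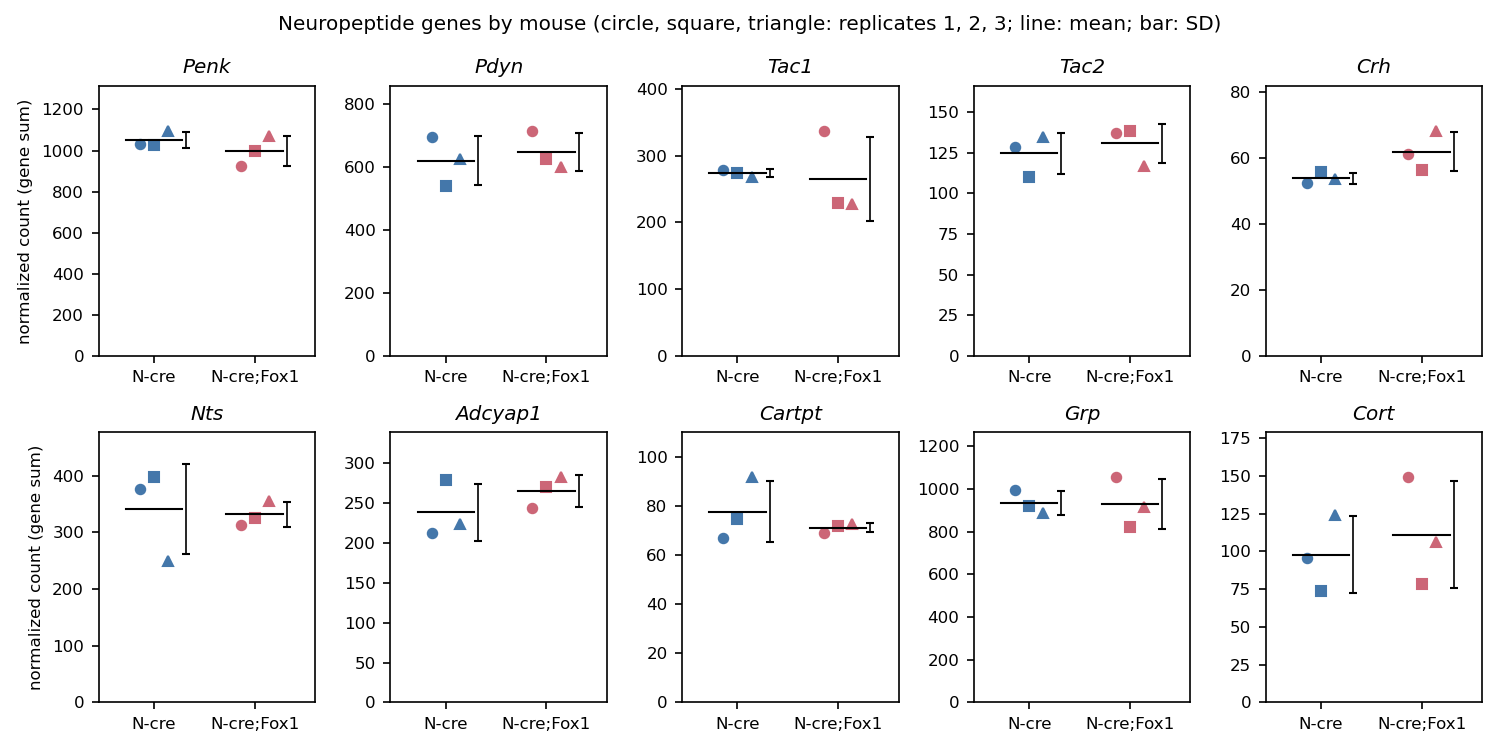
Normalized counts of the gene sums by mouse, 1 panel per gene with the y axis from 0, N-cre in blue and N-cre;Fox1 in red, with the mean as a line and the SD as a bar. The genotypes overlap in 9 panels, and in the panel for Crh the lowest N-cre;Fox1 value, 56.4, lies just above the highest N-cre value, 55.7.

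The opioid precursors were among the more abundant of these genes. Penk, the precursor of the enkephalins, had normalized counts of 1029, 1027 and 1095 in controls and 924, 998 and 1072 in N-cre;Fox1 mice. The lowest value was in an N-cre;Fox1 mouse, but the 3 controls lay within the N-cre;Fox1 range or close above it. The log2 fold change was -0.074 ± 0.0662 (SE, adjusted p = 0.930, edgeR). Pdyn, the precursor of the dynorphins, had normalized counts of 695, 539 and 625 in controls and 714, 626 and 601 in N-cre;Fox1 mice. The replicate 1 mouse was the highest of each genotype, and neither genotype stood above the other. For Pdyn the log2 fold change came to 0.060 ± 0.104 (SE, adjusted p = 0.972, edgeR), and it changed sign without N-cre replicate 2 (-0.029) or without N-cre;Fox1 replicate 1 (-0.011). Penk (ENSMUSG00000045573.9, chromosome 4, 4133531 to 4138819) shares bases with A830012C17Rik on the opposite strand. The library kit marks strand, while the strand setting of the counting is not given in the sources used here.

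Tac1 encodes substance P and neurokinin A, and Tac2 encodes neurokinin B. Tac1 had normalized counts of 279, 275 and 268 in controls and 337, 229 and 228 in N-cre;Fox1 mice. The 3 control mice lay close together, with an SD of 5.46, while the N-cre;Fox1 mice lay on both sides of them, with an SD of 62.6. The log2 fold change was -0.051 ± 0.153 (SE, adjusted p = 0.986, edgeR). It depended on which N-cre;Fox1 mouse was left out. Without N-cre;Fox1 replicate 1, a mouse high in Xist, it was -0.26. There edgeR gave an unadjusted p of 0.0486 and an adjusted p of 0.539. Without N-cre;Fox1 replicate 2 or replicate 3 the log2 fold change was 0.042 or 0.046. Tac2 had normalized counts of 129, 110 and 135 in controls and 137, 138 and 117 in N-cre;Fox1 mice, with the genotypes interleaved. Tac2 had a log2 fold change of 0.069 ± 0.145 (SE, adjusted p = 0.978, edgeR), and -0.0083 without N-cre replicate 2.

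Crh encodes corticotropin-releasing hormone, which in the hippocampus is made in interneurons, and Adcyap1 encodes PACAP, a peptide of the secretin family. Crh had normalized counts of 52.4, 55.7 and 53.6 in controls and 61.1, 56.4 and 68.2 in N-cre;Fox1 mice, higher in each N-cre;Fox1 mouse than in any control. The gap between the genotypes, from 55.7 to 56.4, was narrower than the SD of either genotype, 1.67 and 5.94. The log2 fold change was 0.20 ± 0.181 (SE, unadjusted p = 0.291, adjusted p = 0.930, edgeR), and it stayed above 0 in each of 17 alternative analyses, at 0.13 to 0.27. Adcyap1 had normalized counts of 212, 278 and 224 in controls and 243, 269 and 282 in N-cre;Fox1 mice, with the genotypes overlapping. For this gene the log2 fold change was 0.16 ± 0.130 (SE, adjusted p = 0.923, edgeR), and reached 0.29 without N-cre replicate 2, where the adjusted p was 1.00 (edgeR).

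Cartpt encodes the CART peptides, Nts encodes neurotensin, Grp encodes gastrin-releasing peptide and Cort encodes cortistatin, a relative of somatostatin. Cartpt had normalized counts of 67.0, 74.6 and 91.6 in controls and 69.0, 71.9 and 72.7 in N-cre;Fox1 mice. The highest value was that of N-cre replicate 3, a mouse with high choroid plexus counts, and without it the log2 fold change went from -0.12 to 0.016. Nts had normalized counts of 377, 397 and 250 in controls and 313, 326 and 356 in N-cre;Fox1 mice. N-cre replicate 3 was here the lowest of all 6. For Nts the log2 fold change was -0.044 (adjusted p = 0.987, edgeR), and -0.22 without N-cre replicate 3. Grp had normalized counts of 997, 920 and 886 in controls and 1054, 824 and 914 in N-cre;Fox1 mice. Of the 10 genes it had the log2 fold change nearest to 0, at -0.0074 ± 0.0897 (SE, adjusted p = 0.996, edgeR). Grp overlaps AC152076.4, an antisense gene, with the same limit on strand as for Penk.

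Cort varied most between mice. Its normalized counts were 95.3, 73.4 and 124 in controls and 149, 78.3 and 106 in N-cre;Fox1 mice, a 2.03-fold range in which the genotypes were interleaved. The log2 fold change was 0.19 ± 0.264 (SE, adjusted p = 0.965, edgeR), and -0.076 without N-cre;Fox1 replicate 1. With both mice high in choroid plexus genes left out, an analysis chosen after seeing the data, it was 0.58, and on these 2 mice per genotype edgeR gave an unadjusted p of 0.0288 and an adjusted p of 0.815. The other 9 genes then had log2 fold changes from -0.21 (Nts) to 0.27 (Crh), and 0 of 10 genes passed an adjusted p of 0.05. The part that choroid plexus RNA had in the spread of these genes was not tested.

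The spread between mice, as the coefficient of variation over all 6, ran from 5.88% for Penk to 27.4% for Cort. Of 892 genes with a mean count like that of Cort, 88.5% had a smaller one, and their median was 14.7%. Nts, at 15.6%, and Grp, at 8.76%, also varied more than 83.5% and 80.6% of the genes of like count. Crh, at 10.2%, lay at the other end: 8.02% of 873 genes of like count had a smaller one. The genes whose log2 levels tracked each of the 3 most variable members best over the 6 mice, among 13737 genes with a mean count of at least 100, were sought as a description. For Cort they were Ccna2 (Pearson r = 0.97), Zfp771 (0.97) and Fuk (0.97). For Nts they were Atp6v1e1 (0.98), Mtmr1 (0.97) and Chchd7 (0.97). For Tac1 they were Tgfbrap1 (0.99), Lgi1 (0.99) and Nek10 (0.99). With 6 mice, r above 0.9 was reached with 84, 75 and 179 of the 13737 genes for Cort, Nts and Tac1, and all points share the same libraries and their depth. How many unrelated genes would reach such an r with 6 mice was not computed. The named genes are therefore not shown to vary together with these members.

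At the level of isoforms, 14 of the 23 had enough counts to be tested, 9 did not, and Pdyn-202 and Tac2-202 were at 0 in every mouse. Of the 9, Grp-202, an isoform that keeps an intron, had the highest mean normalized count, 12.1, and 33.8 of its expected counts came from N-cre replicate 3. After adjustment 0 of 14 passed 0.05 by edgeR, against 0% of the 50556 isoforms tested. At an unadjusted p under 0.05 there was 1 of 14, Cartpt-201, against 4.78% of all isoforms. DESeq2 and limma-voom gave the same counts, 0 adjusted and 1 unadjusted. Every mouse of a genotype lay on its own side for 2 of 14, Cartpt-201 and Crh-201, against 11.5% of all isoforms, and Crh-201 is the single isoform of its gene.

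**Figure D3:**
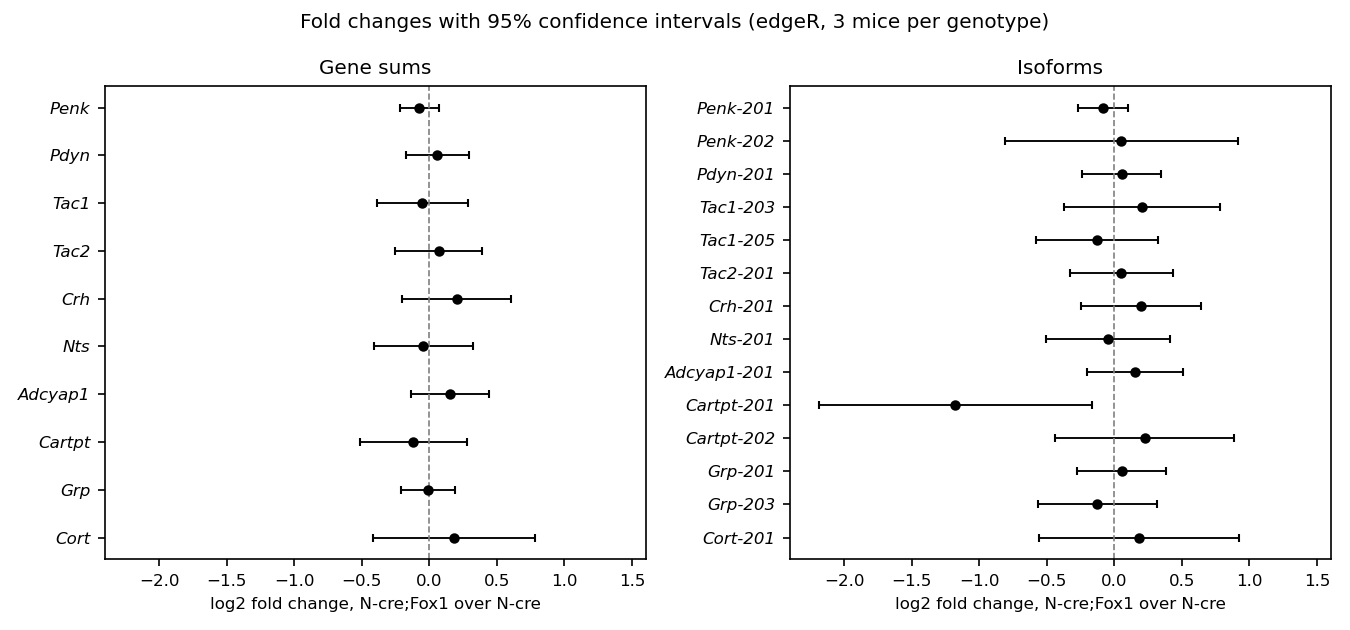
Log2 fold changes of N-cre;Fox1 over N-cre for the 10 gene sums (left) and the 14 tested isoforms (right), with 95% confidence intervals as bars. Every interval includes 0 except that of Cartpt-201, which runs from -2.19 to -0.17.

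Cartpt (ENSMUSG00000021647.7, chromosome 13, 99898489 to 99901091, minus strand) has 2 isoforms, both coding, with precursors long known as the long and short forms of CART. Cartpt-201 (ENSMUST00000022150.7) carries 39 coding bases, 13 codons in frame, at the start of its second exon that Cartpt-202 (ENSMUST00000224142.1) lacks.
Cartpt-201, bases absent from Cartpt-202: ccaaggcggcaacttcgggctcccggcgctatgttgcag
They lie at chr13:99900041-99900079. Cartpt-202 in turn has 450 further noncoding bases at its 5′ end, from 99900642 to 99901091, so that RSEM's division of reads between the isoforms used both the 39 bases and this longer 5′ end.

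**Figure D4:**
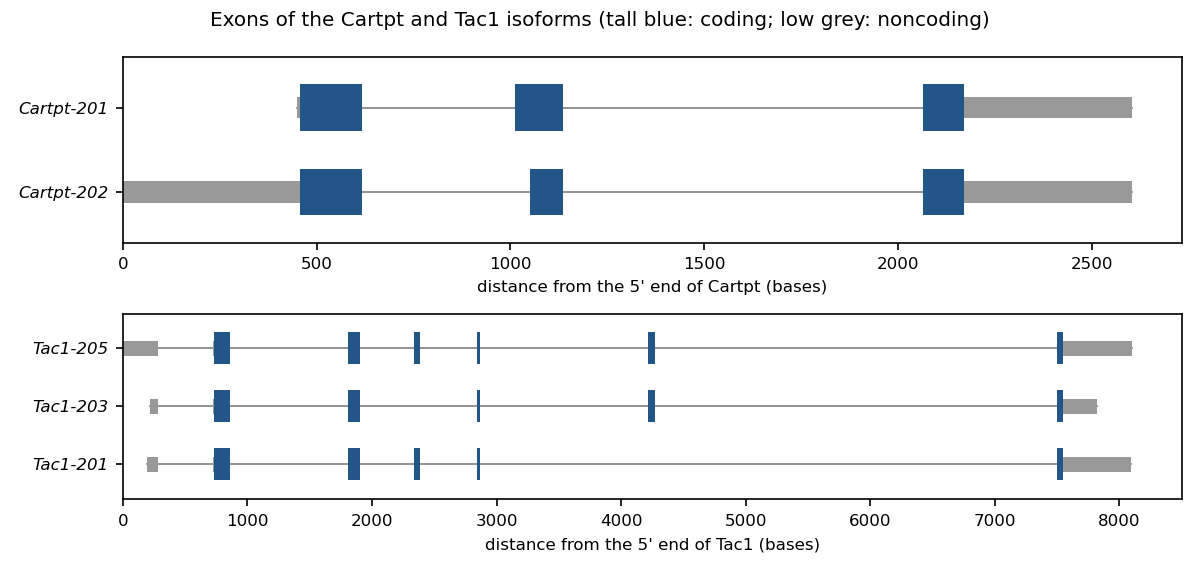
Exons of 2 Cartpt and 3 Tac1 isoforms against the distance from the gene's 5′ end in bases, with coding parts as tall blue and noncoding parts as low grey boxes. Cartpt-201 starts 450 bases further in than Cartpt-202 and has a second exon longer by 39 bases, and Tac1-203 lacks the 45-base exon that Tac1-205 and Tac1-201 share.

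The expected counts of Cartpt-201 were 32.0, 26.2 and 17.1 in controls and 15.5, 6.66 and 15.7 in N-cre;Fox1 mice. After normalization they were 27.5, 31.1 and 22.4 against 15.2, 6.07 and 14.0, lower in each N-cre;Fox1 mouse than in any control. The log2 fold change was -1.18 ± 0.419 (SE, unadjusted p = 0.0289, adjusted p = 0.990, edgeR). It was negative in each of 15 alternatives, from -1.37 to -0.88, with adjusted p-values of 0.828 to 1.00. The unadjusted p rose above 0.05 without N-cre replicate 1 (0.0723), without N-cre replicate 2 (0.0840), without N-cre;Fox1 replicate 2 (0.0524), without both mice high in choroid plexus genes (0.0541) and with the replicate number as a block (0.0667). Cartpt-202 had expected counts of 46.0, 36.8 and 52.9 in controls and 54.5, 72.3 and 65.4 in N-cre;Fox1 mice, with a log2 fold change of 0.23, a standard error of 0.274 and overlapping genotypes after normalization.

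As a share of the gene's counts, which does not depend on library size, Cartpt-202 made up 58.9%, 58.4% and 75.5% in controls and 77.9%, 91.6% and 80.7% in N-cre;Fox1 mice. The genotypes did not overlap, but N-cre replicate 3 lay close below the lowest N-cre;Fox1 mouse. The means differed by 19.1 percentage points, 64.3% ± 9.74 against 83.4% ± 7.22 (SD, n = 3 each), with an exact two-sided permutation p of 0.1, the smallest that 3 against 3 mice allow. Adjusted over the 12192 genes with a share to test, this p was 0.924 by Benjamini-Hochberg. The share of Cartpt-201 in a single mouse rested on 63 to 81 counts: its 95% Wilson intervals, for counting error only, were 30.8% to 52.1%, 30.3% to 53.9% and 15.9% to 35.7% in the controls and 14.0% to 33.1%, 4.07% to 16.6% and 12.2% to 29.2% in the N-cre;Fox1 mice. N-cre replicate 3 overlapped all 3 of the latter. Among 825 genes with a like count, 8.97% had a larger difference in the share of their leading isoform. Without both mice high in choroid plexus genes the difference was 20.6 points.

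Shares were tested for 6 members with more than 1 isoform above 0, and the mice separated fully by genotype for 2 of 6, Cartpt and Tac1, against 10.8% of the 12192 genes. Tac1 (ENSMUSG00000061762.12, chromosome 6, 7554879 to 7565834, plus strand) was counted mainly as Tac1-205 (ENSMUST00000185187.7), which holds all 7 exons, the form called beta, and as Tac1-203 (ENSMUST00000184986.1), the gamma form without the fourth exon. The skipped exon is 45 bases long, 15 codons in frame, and holds neither substance P nor neurokinin A.
Tac1-205, exon absent from Tac1-203: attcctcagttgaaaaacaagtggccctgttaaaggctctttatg
It lies at chr6:7557216-7557260, between the stretches for substance P and neurokinin A printed above, so both forms encode both peptides. Tac1-203 is also annotated with shorter 5′ and 3′ ends, by 217 and 277 bases. Tac1-201, the alpha form, lacks the 54-base exon that holds the codons of neurokinin A. It was at 0 in 5 mice and at 5.86 expected counts in N-cre replicate 3.

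Tac1-205 made up 75.9%, 77.8% and 76.6% of the Tac1 counts in controls and 72.7%, 74.9% and 70.6% in N-cre;Fox1 mice. Each N-cre;Fox1 mouse lay below every control, but the nearest values, 74.9% and 75.9%, were close. The share in a single mouse rested on 205 to 342 Tac1 counts, and its counting error was not computed. The means differed by -4.02 percentage points, 76.7% ± 0.953 against 72.7% ± 2.13 (SD, n = 3 each; exact two-sided permutation p = 0.1, adjusted over all genes 0.924), and by -5.18 points without both mice high in choroid plexus genes. Of 1238 genes with a like count, 33.3% had a larger difference. Tac1-203 accounted for 24.1%, 22.2% and 20.6% in controls and 26.8%, 25.1% and 28.2% in N-cre;Fox1 mice. As separate isoforms neither passed a test: the log2 fold change was -0.13 ± 0.187 (SE) for Tac1-205 and 0.21 ± 0.239 (SE) for Tac1-203, and the genotypes overlapped for each.

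The other 4 members kept overlapping shares. Penk-201 made up 91.7% to 95.7% of Penk, with a difference of -0.56 points (exact permutation p = 0.7). The rest was Penk-202, at normalized counts of 82.5, 43.9 and 67.1 in controls and 69.0, 43.0 and 88.9 in N-cre;Fox1 mice. Pdyn-201 made up 99.0% to 99.8% of Pdyn (exact permutation p = 0.2) and Tac2-201 96.7% to 100% of Tac2 (exact permutation p = 0.4). Grp-201 made up 72.3%, 65.5% and 72.1% in controls and 76.0%, 71.8% and 70.8% in N-cre;Fox1 mice (exact permutation p = 0.6), and Grp-203, which has the same coding length of 438 bases, held most of the rest. Nts-201, Adcyap1-201, Crh-201 and Cort-201 were the single isoforms of their genes.

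**Figure D5:**
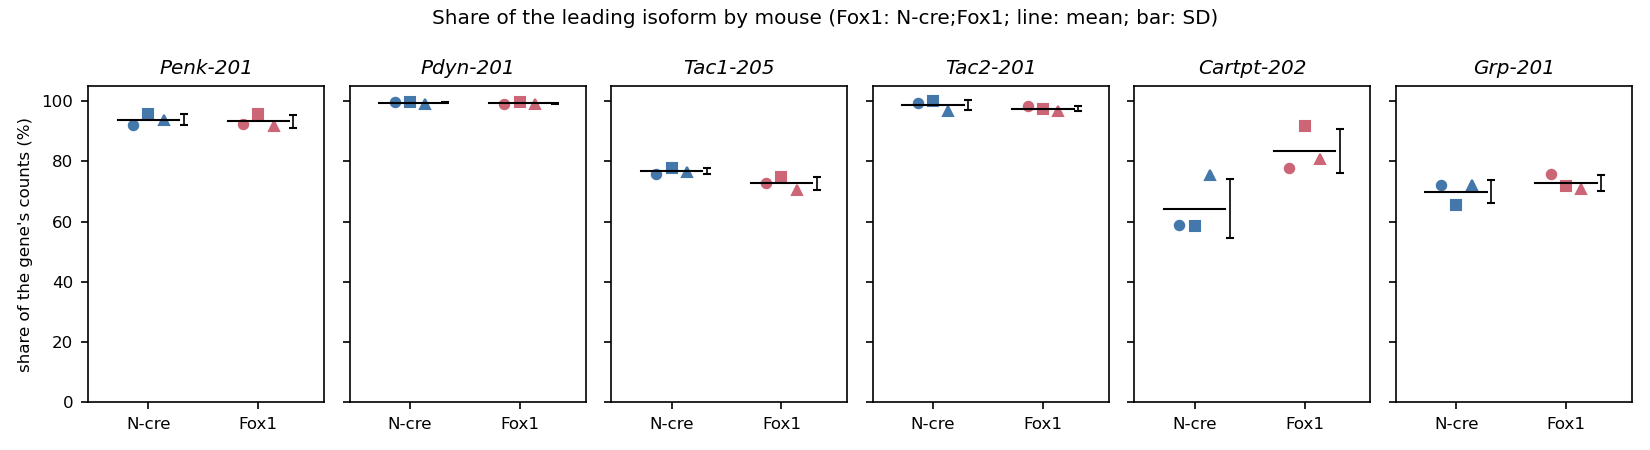
Share of each gene's expected counts that its leading isoform took, by mouse, with N-cre in blue, N-cre;Fox1 (written Fox1) in red, the mean as a line and the SD as a bar (circle, square and triangle: replicates 1, 2 and 3). The genotypes separate for Tac1-205 and Cartpt-202 and overlap for Penk-201, Pdyn-201, Tac2-201 and Grp-201.

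Of the isoforms that lead their genes, those of 6 members held the Rbfox motif GCATG, searched on the transcript strand: Pdyn-201 and Crh-201 held 3 copies each, Nts-201 held 2, and Adcyap1-201, Cartpt-202 and Tac1-205 held 1 each. No copy was found in Penk-201, Tac2-201, Grp-201 or Cort-201. The longer motif TGCATG, which contains the shorter, occurred once in Pdyn-201 and once in Nts-201. In both Cartpt isoforms the copy lies after the coding part, in bases that they share. In Tac1-205 the copy also lies after the coding part. Tac1-203, annotated with a 3′ end shorter by 277 bases, held 0, so this difference goes with the annotated end and not with the skipped exon. Among annotated isoforms within 10% of the length, 69.0% held GCATG at the length of Cartpt-202, 68.7% at that of Tac1-205 and 74.6% at that of Penk-201. For the other leading isoforms this share ran from 45.5% (Tac2-201 and Cort-201) to 95.8% (Adcyap1-201), with 88.4% for Pdyn-201 and 71.7% for Crh-201. A match in a mature transcript is thus common, and neither its presence nor its absence sets these genes apart. The number of copies was not compared with other isoforms. Introns were not searched, because no genome sequence was used here.

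The genes that process these peptides did not separate the genotypes either. Of 20 genes for processing and for dense-core vesicles, all 20 were tested and 0 passed an adjusted p of 0.05 (edgeR), with 10 log2 fold changes above 0, 10 below and a median of 0.0075. At an unadjusted p under 0.05 there was 1 of 20, against 6.19% of all genes. This was Scg2, a secretogranin of the vesicle core, at 9605 ± 741 and 10628 ± 384 normalized counts (log2 fold change 0.15, unadjusted p = 0.0247, adjusted p = 0.783, edgeR). Pcsk2, a convertase, and Cpe, the carboxypeptidase, came next at log2 fold changes of -0.047 and 0.051. Per kb the highest of the list were Cpe (59917), Chgb (11308), a granin, and Ptprn (9324), a vesicle membrane protein.

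Among 21 receptors and binding proteins of these peptides 19 were tested. The opioid receptor Oprm1 and the Grp receptor Grpr were below the filter, at most at 9.2 and 4.6 normalized counts. None passed an adjusted p of 0.05. Before adjustment 6.19% of all genes were below 0.05, and so were 2 of these 19 (edgeR). These were Sstr3, a receptor for somatostatin and cortistatin, at a log2 fold change of -0.13 (unadjusted p = 0.00911, adjusted p = 0.699, edgeR), and Crhr1, the receptor for Crh, at -0.19 (unadjusted p = 0.0420, adjusted p = 0.799, edgeR). Sstr3 was lower in each N-cre;Fox1 mouse than in any control, and Crhr1 overlapped. Of all genes tested, 12.1% separated fully by genotype in either direction. Ntsr1, a neurotensin receptor, followed at -0.36 (unadjusted p = 0.0655, edgeR). The list median was -0.010. Sort1 (5860 per kb), a sorting receptor that binds neurotensin, Ntsr2 (3635) and Adcyap1r1 (2419), the PACAP receptor, had the highest levels per length.

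Of 20 other neuropeptide genes, 12 were tested and 0 passed, with a list median of 0.021. At an unadjusted p under 0.05 there were 2 of 12, against 6.19% of all genes. These were Vip, of a class of interneurons, and Nppc, the C-type natriuretic peptide. Their log2 fold changes were -0.21 (unadjusted p = 0.0379, adjusted p = 0.799, edgeR) and -0.36 (unadjusted p = 0.0432, adjusted p = 0.799, edgeR). Both were lower in each N-cre;Fox1 mouse than in any control, and 12.1% of all genes tested separated fully in either direction. Cck (12499 per kb), Sst (10547) and Npy (2106) stood above the 10 members in level, at log2 fold changes of -4.0e-04, 0.13 and 0.092. Tac4 and Nmu were at 0 in every mouse.

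Penk, Pdyn and Tac1 are also strongly expressed in the striatum, and the list of 13 striatal and amygdalar markers was therefore placed beside them. All 13 were tested, and they summed to 5348, 5379 and 6233 in controls and 4638, 7263 and 4805 in N-cre;Fox1 mice, with a median log2 fold change of -0.22. Ppp1r1b alone gave 1830 to 3895 of these counts. Its 2 highest values, 2923 in N-cre replicate 3 and 3895 in N-cre;Fox1 replicate 2, were in the mice high in choroid plexus genes. The same mice had the highest sums of the list. Of the 13, 3 had an unadjusted p under 0.05, all lower in N-cre;Fox1 mice (Adora2a, Syndig1l and Rgs9), against 6.19% of all genes. After adjustment 0 of the 13 passed (edgeR). The 12 markers of GABAergic neurons summed to 43129 to 46497 in controls and 42444 to 43461 in N-cre;Fox1 mice, with 10 log2 fold changes below 0, a median of -0.051 and 0 at an unadjusted p under 0.05 (edgeR). The 22 genes induced by neuronal activity summed to 62357, 55196 and 58876 in controls and 62129, 79184 and 86964 in N-cre;Fox1 mice. Their median log2 fold change was 0.34, but N-cre;Fox1 replicate 1 lay within the control range. At an unadjusted p under 0.05 there were 7 of these 22, all higher, against 6.19% of all genes in either direction. After adjustment 0 passed (edgeR). Of the other cell type lists, all 9 CA1 markers had log2 fold changes below 0, with a median of -0.081. Dentate granule markers had 8 above and 2 below 0, and CA3 markers 5 above and 3 below. At an unadjusted p under 0.05 there were 0 CA1, 2 dentate and 2 CA3 markers (edgeR). Astrocyte markers had 5 of 10, with 4 higher and 1 lower. After adjustment 0 of these lists' genes passed (edgeR). Whether cell makeup, neighbouring tissue or activity had a part in any value of the neuropeptide genes was not tested.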

How the data were processed

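Per the labels and the study's methods, the authors used Cutadapt 1.18 for trimming, STAR 2.5.2b for mapping to mm10 and RSEM 1.3.0 with GENCODE models for quantification. They deposited unnormalized expected counts, 1 column per mouse. The study's EBSeq test was not rerun. The 10 genes and all gene lists were chosen with earlier results of these data known. Expected counts were rounded, summed by symbol for genes, filtered with filterByExpr (minimum count 10, minimum total 15), and tested in R 4.3.3 with edgeR 4.0.16 (robust quasi-likelihood fit on genotype after TMM scaling); p-values were adjusted over all features by Benjamini-Hochberg, and 0.05 was the threshold. DESeq2 1.42.0 and limma 3.58.1 (voom) were alternatives. Shares of a gene with at least 30 counts in every mouse were compared by exact two-sided permutation. Structures and lengths came from GENCODE M21, in which 130826 isoforms kept identifier and version. RSEM's uncertainty in dividing reads is in none of the errors given. Isoforms averaging at least 10 normalized counts were named, and of each pathway list, for want of a gene past the threshold, up to 3 with the smallest p and 3 with the highest level. Labels do not say whether mice shared a litter.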

Additional observations from a re-analysis of the deposited data

How the results depend on the processing

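The count of 0 neuropeptide genes and 0 of their isoforms past an adjusted p of 0.05 was the same in every alternative run: another normalization, filter or tool, unrounded counts, a term for Xist, the replicate number as a block, each mouse left out, and both mice high in choroid plexus genes left out (added after the data were seen). Signs were less settled: 18 of 170 gene values, 12 of 223 isoform values and 2 of 54 share differences changed sign. Without both choroid mice the log2 fold change was 0.028 for Tac1, 0.0086 for Cartpt and 0.038 for Grp, and with the leading isoform alone 0.23 for Cartpt and 0.053 for Grp. Leaving out single mice gave ranges of -0.029 to 0.16 for Pdyn, -0.26 to 0.046 for Tac1, -0.0083 to 0.14 for Tac2, -0.22 to 0.079 for Nts, -0.22 to 0.016 for Cartpt, -0.10 to 0.072 for Grp and -0.076 to 0.39 for Cort, and for isoforms of -0.22 to 0.077 for Nts-201, -0.084 to 0.14 for Grp-201, -0.28 to 0.028 for Grp-203, -0.021 to 0.13 for Tac2-201, -0.035 to 0.15 for Pdyn-201, -0.088 to 0.39 for Cort-201, -0.21 to 0.29 for Penk-202 and -0.010 to 0.34 for Tac1-203. The share difference of Penk-201 ran from -1.75 to 0.37 points. The causes were not tested.

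Over all genes, the 5 past the threshold became 45 with no filter beyond 1 count in total, 50 with DESeq2's Wald test, 11 with the term for Xist, and 2 to 28 with each mouse left out, highest without N-cre;Fox1 replicate 1. The 0 isoforms became 10 with no filter, 6 with at least 10 counts in every mouse, 215 with DESeq2 and 1 without rounding. Of the lists, activity genes had 5 with DESeq2 and 0 to 5 with each mouse left out, striatal and amygdalar markers 0 to 1 with each mouse left out and 1 without both choroid mice, and astrocyte markers 2 with no filter, 2 with DESeq2 and 1 with the Xist term.

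Same-numbered mice were not alike throughout: their deviations correlated at 0.72, -0.21 and -0.35 over 13738 genes. N-cre replicate 3 and N-cre;Fox1 replicate 2, both high in choroid plexus genes, correlated at 0.75. N-cre replicate 2 and N-cre;Fox1 replicate 3 correlated at 0.56. The mice at 0.72 were those high in Xist, so these values cannot tell whether mice were paired by litter or batch. With the replicate number as a block, 0 members and 5 genes passed, and the log2 fold change of Cartpt-201 was -1.23 (unadjusted p = 0.0667, edgeR). The share difference of Cartpt-202 stayed 19.1 points, with an exact sign-flip p of 0.25, the smallest 3 pairs allow. At 63 to 81 Cartpt counts per mouse, counting error alone leaves intervals of over 10 points on its shares. The filter of 10 counts in every mouse removed Cartpt-201, so this setting gave no value for it.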
